A study of Rattus norvegicus with 2 samples.

Results

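Nuclear genes for subunits of the respiratory chain and the ATP synthase were taken from the gene rows of the 2 muscle libraries by name. A row was a member when its name started with Ndufa, Ndufb, Ndufc, Ndufs, Ndufv, Uqcr, Cox4 to Cox8 or Atp5, or was Sdha, Sdhb, Sdhc or Sdhd. Assembly factors named Ndufaf were left out. The rule gave 84 of 23373 rat rows and 88 of 25906 mouse rows, and no measured value entered it. Of the rat rows, 38 were counted with complex I, 4 with complex II, 8 with complex III, 19 with complex IV and 15 with complex V, the ATP synthase. The 84 rows carried 79 names, because 5 names had 2 rows, and 8 rows held fewer than 20 UMIs over the whole SD rat library. No rat row was named Cox7a2, Cox8a, Cox8b, Cox6b2 or Atp5mc1, so isoform shares that need these names could not be formed in rat cells.

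The study asked whether corrected muscle stem cells can be made from induced pluripotent stem cells (iPSCs) in mouse or rat hosts. It also asked whether such cells restore dystrophin in dystrophic mice. Single-cell libraries were made to see which muscle cells were of mouse origin in a rat-mouse chimera. One library came from skeletal muscle of a Sprague-Dawley (SD) rat. The other came from 1 of 7 chimeras, made by injecting SD rat morulae with mouse induced pluripotent stem cells that carried the Dmd mdx allele, edited with CRISPR/Cas9, and the Pax7-nGFP reporter of satellite cells. Muscle from the whole body was digested with collagenase II, live cells were sorted with a calcein dye, and 20000 counted cells went into each droplet-based 3′ library, in which unique molecular identifiers (UMIs) count the captured RNA molecules. Chimera barcodes with at most 20% of UMIs on mouse rows were read as chimera rat cells and those with at least 80% as mouse cells. The mouse cells thus descend from 1 edited iPSC line in 1 animal, and the age of the animals was not used here.

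The SD rat library held 70957559 UMIs in 10117 barcodes and the chimera library 118872850 UMIs in 13299 barcodes. After filters, 8816 SD rat and 11730 chimera barcodes were kept, of which 1653 chimera barcodes with between 20% and 80% of UMIs on mouse rows were left out. The libraries shared 43 barcode sequences. Cells were clustered without the member genes and classes were named from markers, so they are rebuilt names that can differ from those of the study. Each group was 1 library from 1 animal, so no difference could be set against replicate spread and no p-value was computed. All intervals are exact 95% intervals and cover counting error only. A level is given as a percent of UMIs, or as counts per 1000000 (CPM), of the UMIs on genes of the cell's own species. Each UMI marks the 3′ end of 1 molecule, so gene length does not enter, although the annotation of that end does.

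The respiratory chain passes electrons from NADH (complex I) and succinate (complex II) through complex III to complex IV, cytochrome c oxidase, which reduces oxygen, and the ATP synthase uses the proton gradient that this builds. Most subunits are encoded in the nucleus, and the mitochondrial genome encodes a small core of complexes I, III, IV and V. Several complex IV subunits exist as tissue isoforms: Cox6a2, Cox7a1 and Cox8b are the heart and skeletal muscle forms of Cox6a1, Cox7a2 and Cox8a, Cox4i2 is a lung and hypoxia-linked form of Cox4i1, and Ndufa4l2 is a hypoxia-induced relative of Ndufa4, a protein first counted with complex I.

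Sequence just upstream of the annotated start is shown for the muscle isoforms Cox6a2 and Cox7a1, for Ndufa4l2, and for the broadly expressed forms Ndufa4 and Cox4i1, because these genes separate the cell classes below. The stretches hold 150 bases and were read 5′ to 3′ from the RefSeq promoter table of rat build GRCr8, which is not the build of the count files. Capitals mark letters that match a searched motif.
Cox6a2: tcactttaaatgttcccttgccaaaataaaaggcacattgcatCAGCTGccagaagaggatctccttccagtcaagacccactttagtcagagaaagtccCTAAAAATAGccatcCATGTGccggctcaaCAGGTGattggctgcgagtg
Cox7a1: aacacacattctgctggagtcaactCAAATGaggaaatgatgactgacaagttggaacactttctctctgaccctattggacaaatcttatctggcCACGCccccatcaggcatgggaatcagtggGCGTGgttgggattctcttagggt
Ndufa4l2: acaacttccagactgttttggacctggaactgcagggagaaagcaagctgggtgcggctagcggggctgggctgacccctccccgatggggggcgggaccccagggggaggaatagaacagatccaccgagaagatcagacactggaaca
Ndufa4: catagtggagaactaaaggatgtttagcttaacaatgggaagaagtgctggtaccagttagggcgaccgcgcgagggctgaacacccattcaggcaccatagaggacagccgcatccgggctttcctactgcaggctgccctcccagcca
Cox4i1: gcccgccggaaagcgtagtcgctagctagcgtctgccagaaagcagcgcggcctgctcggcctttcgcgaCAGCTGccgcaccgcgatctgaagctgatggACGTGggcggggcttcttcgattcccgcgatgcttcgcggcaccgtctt

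On GRCr8 the stretches lie at chr1:192219717-192219866 on the minus strand for Cox6a2, chr1:94569066-94569215 on the plus strand for Cox7a1 and chr7:65242019-65242168 on the plus strand for Ndufa4l2. Those of Ndufa4 and Cox4i1 lie at chr4:40975560-40975709 on the minus strand and chr19:65630233-65630382 on the plus strand. Cox4i2 and Cox6a1 had no entry. Motifs were searched on both strands over the 250 bases before the start, and 68 of the 79 rat member names had an entry among 33469 promoters. The searched motifs were the E-box CANNTG, the MEF2 consensus, the hypoxia response core ACGTG or GCGTG (which can overlap an E-box), the ETS motif CCGGAAG and the NRF1 core TGCGCA. The Cox6a2 window held 4 E-boxes and 1 MEF2 match, 50 to 41 bases before the start. It was the 1 window among 68 member windows with a MEF2 match, a motif found in 2.96% of all promoters. E-boxes were found in 54.4% of member windows and 65.5% of all windows, so they were common in both. The NRF1 core was found in 19 of 68 member windows (27.9%) against 6.14% of all, and the ETS motif in 18 (26.5%) against 7.27%. The hypoxia response core was in 33 member windows (48.5%) against 36.7% of all. The Cox7a1 and Cox4i1 windows each held 1 E-box and 2 hypoxia response cores, and the Ndufa4 window held 1 such core outside the stretch shown. None of the 5 motifs was in the Ndufa4l2 window. A match is a description of letters, base composition was not matched, and no match says only that these letters are not in this window.

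The summed level of the members set myocyte-like cells apart in every population. In the SD rat the members made up 8.55% of the UMIs of 1512 myocyte-like cells, with an interval of 8.52% to 8.57%. Next were myogenic progenitor (MP)-like cells at 2.51%, cycling cells at 2.30% and pericyte or mural-like cells at 2.04%. Fibro-adipogenic progenitor (FAP)-like cells were lowest at 1.54%, so that myocyte-like cells were 5.55-fold above them (5.53 to 5.57). RNA of 8 myofibre genes, among them Acta1, Ckm and Mb, was also counted outside myocyte-like cells. In the SD rat it stood at 28089 CPM in endothelial cell-like, 21356 CPM in B-like and 8602 CPM in FAP-like cells, against 359188 CPM in myocyte-like cells. The part of such RNA in the sums, the folds and the order of the classes was not tested. In chimera rat cells the level was 6.65% in 832 myocyte-like cells, 2.67% in MP-like cells and 1.59% in FAP-like cells, a 4.19-fold range between myocyte-like and FAP-like cells. In mouse cells it was 7.96% in 29 myocyte-like cells (7.78% to 8.15%), 2.92% in 45 MP-like cells and 1.57% in 127 FAP-like cells. The median mitochondrially encoded share of the mouse myocyte-like cells was 0%, against 4.52% in mouse FAP-like cells. It was 0.735% in SD rat and 0.322% in chimera rat myocyte-like cells. The mouse fold of myocyte-like over FAP-like cells was 5.09, and it was 2.05 with mouse cells set at 90% of UMIs, where a cluster of 47 cells led by Gal and Cryab took the myocyte-like name.

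Among the named classes, myocyte-like and MP-like cells held the first and second rank in all 3 populations, and the order of the others differed. An unnamed chimera rat cluster of 172 cells stood at 2.76% (2.74% to 2.79%), above the chimera rat MP-like cells (2.65% to 2.68%). B-like cells, for instance, were at 1.60% in the SD rat, 1.48% in chimera rat cells and 2.17% in mouse cells, on a mouse list with other rows. Erythroid-like cells, a lineage that sheds its mitochondria as it matures, were lowest where the class was found, at 0.303% of rat UMIs in 19 chimera rat cells and 0.252% of mouse UMIs in 23 mouse cells. Several neighbours in the order were not separable by counting error: tenocyte or fibroblast-like cells of the SD rat were at 1.55% (1.54% to 1.56%), which overlaps the B-like cells, at 1.55% to 1.65%.

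**Figure D1:**
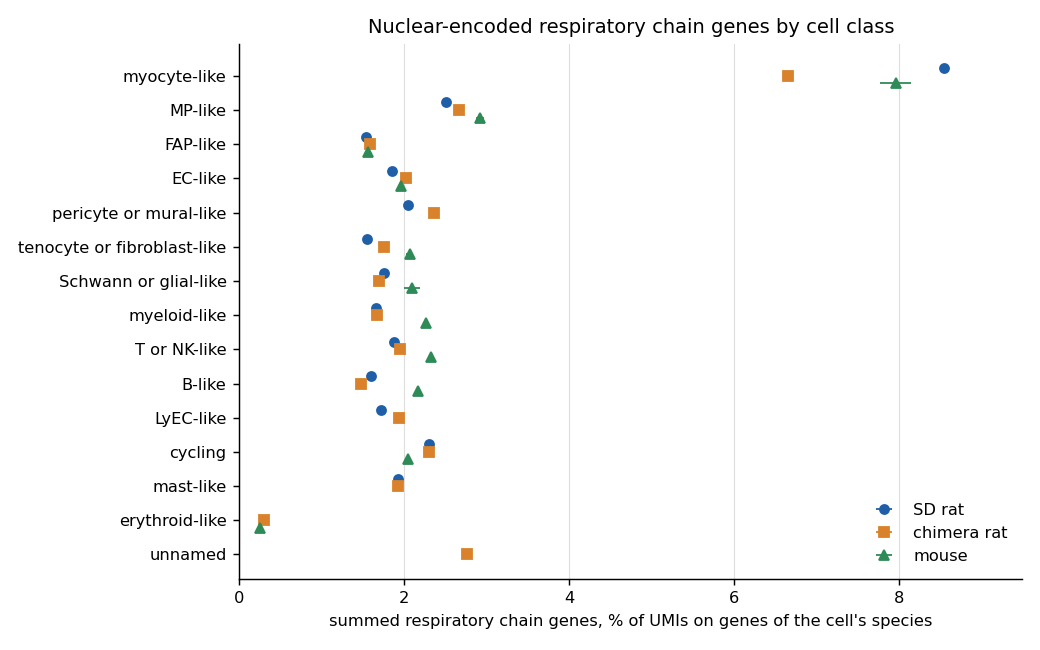
The summed level of the member genes, as a percent of UMIs on genes of the cell's own species, is plotted for each cell class (rows) in SD rat (circles), chimera rat (squares) and mouse cells (triangles), with exact 95% intervals that are mostly smaller than the symbols. Myocyte-like cells lie between 6.65% and 8.55%, and MP-like cells, next among the named classes in all 3 populations, between 2.51% and 2.92%. The unnamed chimera rat cluster lies at 2.76%, above the chimera rat MP-like cells.

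The 5 complexes kept similar parts of this sum. In SD rat myocyte-like cells complex IV took 31.0% of the member UMIs, complex V 27.8%, complex I 25.8%, complex III 14.1% and complex II 1.3%. In FAP-like cells complex I took 30.5%, complex V 28.2%, complex IV 28.0%, complex III 11.7% and complex II 1.5%. The myocyte-like sum was therefore not carried by a single complex.

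The mitochondrially encoded subunits did not follow this order. Their 13 rows made up 1.31% of UMIs in SD rat myocyte-like cells and 4.32% in FAP-like cells. All 13 were at least 2-fold lower in myocyte-like cells, with a median log2 ratio of -1.73. Among all 13068 rat genes with at least 20 UMIs in this comparison, 54.4% were at least 2-fold lower, with a median of -1.18. Barcodes above 20% mitochondrial UMIs had been removed, which were 11.1% of SD rat and 8.34% of chimera barcodes. How much the filter and the digestion of fibres bear on this was not tested.

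The high sum of myocyte-like cells came from most of the members. Of 76 SD rat members with at least 20 UMIs in myocyte-like and FAP-like cells together, 66 were at least 2-fold higher in myocyte-like cells, and 3 were at least 2-fold lower. Among all 13068 rat genes passing the same limit, 10.2% were at least 2-fold higher and 54.4% at least 2-fold lower. The median log2 ratio was 2.38 for the members and -1.18 for all genes, on the log2(CPM + 1) scale.

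Cox6a2 led the members. It stood at 5186 CPM in SD rat myocyte-like and 120 CPM in FAP-like cells, 42.8-fold higher. Ndufs3, a core subunit of the hydrophilic arm of complex I, followed with 710 and 62.2 CPM, 11.2-fold higher. The complex IV subunits Cox7b and Cox5a were 10.8-fold and 10.6-fold higher, and Ndufab1, the mitochondrial acyl carrier protein in complex I, was 10.2-fold higher, at 1282 against 124 CPM.

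At the other end were isoforms and a regulator. Cox6a1, the broadly expressed partner of Cox6a2, had 77.9 CPM in myocyte-like and 419 CPM in FAP-like cells, a log2 ratio of -2.41. Ndufa4l2 had 4.42 and 11.1 CPM, and Atp5if1, the inhibitory factor that blocks ATP hydrolysis by the ATP synthase, had 169 and 368 CPM. These were the 3 members past 2-fold in that direction. Cox4i2 was low in both classes, at 2.59 and 3.24 CPM, and Ndufc2, a membrane-arm subunit of complex I, was nearly level at 176 and 174 CPM.

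The most abundant members of each complex in SD rat myocyte-like cells were small accessory subunits for the most part. Complex IV was led by Cox6a2 and Cox7c, the latter at 4064 CPM, and complex III by Uqcr10 and Uqcrh at 3798 and 2543 CPM. Complex V was led by Atp5me (3782 CPM) and Atp5mg (2776 CPM), subunits of the membrane part, and complex I by Ndufb2 (1478 CPM) and Ndufb8 (1354 CPM). Complex II, whose subunits are all nuclear-encoded, was much lower, with Sdhb at 454 CPM and Sdhc at 340 CPM. In chimera rat myocyte-like cells each of these 10 genes was lower, for example Atp5me at 2457 CPM and Sdhb at 314 CPM, where Cox6a2 stood at 4751 CPM.

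**Figure D2:**
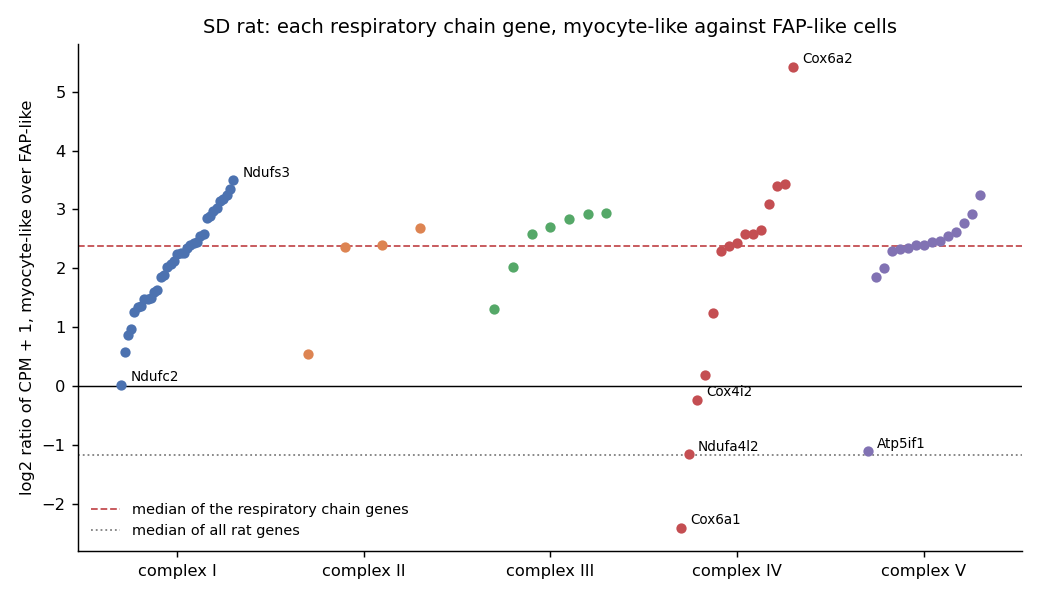
Each point is 1 of 76 member genes of the SD rat, grouped by complex (x axis), with the log2 ratio of CPM + 1 between myocyte-like and FAP-like cells (y axis). The dashed line is the median of the members, 2.38, and the dotted line that of all rat genes, -1.18. Cox6a2 lies highest at 5.42 and its partner Cox6a1 lowest at -2.41.

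Genes around the respiratory chain were described with lists of their own. The list of assembly factors was taken largely by name and also held Coasy, which is not an assembly factor. Of 34 genes tested from it, 19 were at least 2-fold higher in SD rat myocyte-like than FAP-like cells and 4 lower. Their median log2 ratio was 1.72. Of 13 tricarboxylic acid cycle genes, 10 were higher and 1, Suclg2, was lower. Of 6 electron or adenine nucleotide carriers, 4 were higher, among them Cycs (cytochrome c) and Slc25a4, and Slc25a5, the other adenine nucleotide translocase, was lower. Of 8 transcriptional regulators of mitochondrial genes, 4 were higher, including Ppargc1a and Tfam, and 3 were lower, Pprc1, Nrf1 and Gabpa. Of 11 hypoxia-induced genes, 2 were higher and 6 lower. Among all rat genes in this comparison 10.2% were at least 2-fold higher and 54.4% at least 2-fold lower. The 6 lower hypoxia-induced genes were thus near the share of all genes.

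The muscle isoform of subunit VIa nearly replaced its partner in myocyte-like cells of all 3 populations. Cox6a2 took 98.5% of Cox6a1 and Cox6a2 UMIs in SD rat myocyte-like cells, with 34033 UMIs of Cox6a2 against 511 of Cox6a1. It took 98.7% in chimera rat cells, with 22420 against 290 UMIs. In mouse myocyte-like cells it took 278 of 278 UMIs, and a count of 0 for Cox6a1 allows up to 42.3 CPM by the exact Poisson interval. After each cell was thinned to 1000 UMIs, Cox6a2 was found in 97.4% of 1422 SD rat, 97.7% of 826 chimera rat and 96.2% of 26 mouse myocyte-like cells. Without thinning these shares were 97.8%, 99.6% and 100%. The values lie close together, and each mouse value rests on few cells. With mouse cells set at 90% of UMIs, Cox6a2 was 45.4% of the pair in the 47 cells that took the name.

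Cox6a2 was also counted in every other class. In the SD rat it ran from 107 CPM in cycling cells to 437 CPM in endothelial cell (EC)-like cells, where it took 51.6% of the pair, and it took 57.4% in B-like cells. These levels moved with 8 myofibre genes, among them Acta1, Ckm and Mb. Outside myocyte-like cells there were 12.6 to 15.6 Cox6a2 UMIs per 1000 myofibre UMIs in 12 SD rat classes, where myocyte-like cells had 14.4. In 14 chimera rat classes the ratio was 10.6 to 19.1 with a median of 11.9, beside 12.1 in myocyte-like cells. So the ratio to myofibre RNA was close to that of myocyte-like cells even in blood cell classes. This ratio cannot tell expression by a cell from myofibre RNA of other origin, and which of these applies was not tested. A Cox6a2 UMI alone was therefore not taken as a sign of expression outside myocyte-like cells. Thinned to 1000 UMIs, 27.9% of 68 SD rat B-like cells had such a UMI, and 64.4% of 73 without thinning.

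In mouse cells many Cox6a2 UMIs lay on the rat gene. Of the 1229 Cox6a2 UMIs in mouse cells, 66.7% did so (64.0% to 69.4%), the highest of 71 member pairs, where the median pair had 6.08%. Outside myocyte-like cells the mouse gene stood at 2.5 to 34.3 CPM, against 3185 CPM in mouse myocyte-like cells. Its ratio to myofibre RNA was less even than in rat cells, at 5.85 to 61.8 UMIs per 1000 mouse myofibre UMIs in 10 classes, beside 8.17 in myocyte-like cells. The highest was that of B-like cells (43.3 to 85.8), whose 38 UMIs lay in 7 of 133 cells, and 6 of the other classes held fewer than 5 UMIs.

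**Figure D3:**
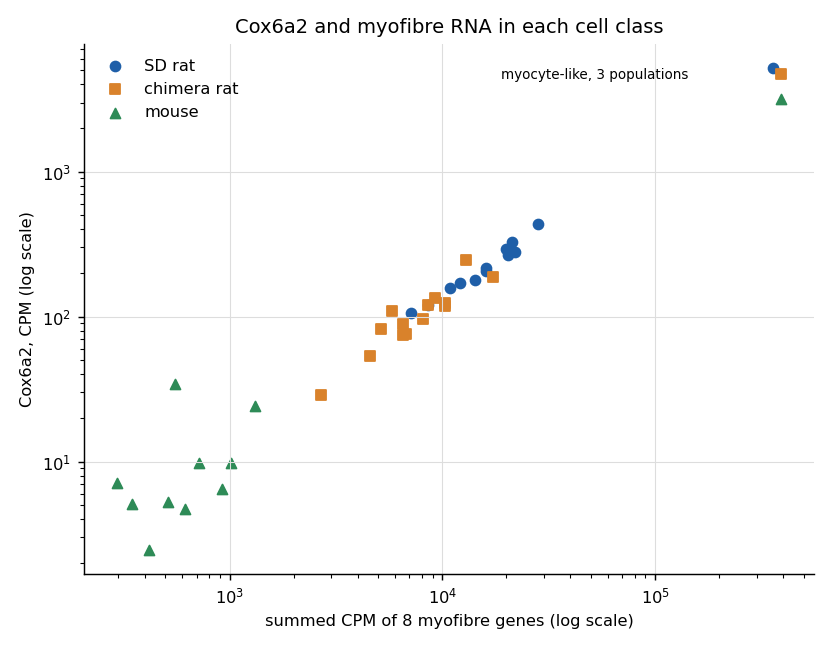
Each point is a cell class of the SD rat (circles), chimera rat cells (squares) or mouse cells (triangles), with the summed CPM of 8 myofibre genes (x axis, log scale) against the CPM of Cox6a2 (y axis, log scale). Rat classes lie along a line that leads to the myocyte-like cells at the upper right, since the ratio of both stays between 10.6 and 19.1 UMIs per 1000 myofibre UMIs. Mouse classes at the lower left scatter more and rest on few UMIs.

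Subunit VIIa gave different pictures on rat and mouse rows. In mouse myocyte-like cells Cox7a1 was at 1169 CPM (953 to 1419) and Cox7a2 at 1134 CPM, so Cox7a1 took 50.7% of the pair, against 4.90% in mouse FAP-like cells. At the species threshold of 90% this share was 12.2%, in the cluster of 47 cells. In SD rat myocyte-like cells Cox7a1 was at 31.1 CPM and in chimera rat myocyte-like cells at 19.5 CPM, with 4.94 and 5.63 CPM in FAP-like cells. In chimera rat cells 48.9% of the 758 Cox7a1 pair UMIs lay on the mouse gene (45.3% to 52.6%), so nearly as many lay there as on the rat gene. The level of rat Cox7a1 is therefore not comparable with that of the mouse gene, and the annotated 3′ end of the rat row was not tested. The related Cox7a2l, which takes part in supercomplex assembly, was near level between SD rat myocyte-like (314 CPM) and FAP-like cells (277 CPM).

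Subunit VIII and the c subunit could be compared in mouse cells. Cox8b took 96.9% of the Cox8a and Cox8b UMIs in mouse myocyte-like cells, with 186 UMIs against 6, and 2.50% in FAP-like cells, with 23 against 897. MP-like mouse cells were like FAP-like cells, with Cox8b at 36.5 CPM and Cox8a at 1277 CPM, so the switch was seen in myocyte-like cells. At the species threshold of 90% Cox8b fell to 9.27% in the cluster of 47 cells. Among the genes for the c subunit of the ATP synthase, identical as mature proteins, mouse Atp5g1 (now Atp5mc1) was at 3208 CPM in myocyte-like and 212 CPM in FAP-like cells. Atp5g2 was at 1111 and 230 CPM and Atp5g3 at 367 and 148 CPM. In the SD rat Atp5mc2 was at 1171 and 292 CPM and Atp5mc3 at 899 and 147 CPM in the same classes. Cox6b2, a testis form of subunit VIb, had 0 UMIs in mouse myocyte-like cells, where its partner Cox6b1 was at 1100.0 CPM. In SD rat myocyte-like cells Cox6b1 was at 448 CPM.

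Cox4i2 and Ndufa4l2 marked pericyte or mural-like cells, the contractile support cells around vessels. Cox4i2 was at 399 CPM (370 to 429) in 343 such cells of the SD rat and at 568 CPM (523 to 616) in 247 chimera rat cells. In FAP-like cells it was at 3.24 and 5.87 CPM and in EC-like cells at 17.0 and 28.9 CPM. Ndufa4l2 was at 493 CPM (462 to 527) and 793 CPM (739 to 849) in pericyte or mural-like cells, against 11.1 and 13.9 CPM in FAP-like cells. Both genes had been kept out of the clustering, and both libraries showed the same leading class. The SD rat cluster also had the endothelial genes Fabp4 and Flt1 among its 10 leading genes, whose part in the difference between libraries was not tested. Without the limit on mitochondrial UMIs, a cluster of 294 SD rat cells led by Slit3 and Myh11 took the mural name and held 86.0 CPM of Cox4i2 and 54.9 CPM of Ndufa4l2.

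Each isoform took a large part of its pair there. Cox4i2 took 32.0% of the Cox4i1 and Cox4i2 UMIs in SD rat pericyte or mural-like cells and 35.4% in chimera rat cells, where FAP-like cells had 0.47% and 0.81%. Ndufa4l2 took 56.7% and 82.7% of the Ndufa4 and Ndufa4l2 UMIs. Cox4i1 itself stayed high in the SD rat mural class, at 849 CPM. Ndufa4 was at 376 CPM in SD rat and 166 CPM in chimera rat pericyte or mural-like cells, so a lower partner and a higher isoform both entered the larger share in the chimera.

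Per cell the picture was the same at equal depth. Thinned to 1000 UMIs, 31.3% of 323 SD rat and 43.3% of 240 chimera rat pericyte or mural-like cells had a Cox4i2 UMI, and 33.7% and 48.3% had a Ndufa4l2 UMI. In T or NK-like cells, which should lack both genes, the thinned shares were 0 of 94 SD rat cells for either gene, which allows up to 3.85%, and 0.14% of 701 chimera rat cells. Without thinning, 57.4% and 67.6% of pericyte or mural-like cells had a Cox4i2 UMI and 55.4% and 68.0% a Ndufa4l2 UMI, at median depths of 3340 and 3520 UMIs. The corresponding T or NK-like cells, at median depths of 6612 and 6905 UMIs, had a Cox4i2 UMI in 3.19% and 0.71% of cells.

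Ndufa4l2 was also counted in a fibroblast class, in rat cells at a lower level than in the mural class. Tenocyte or fibroblast-like cells held 195 CPM in the SD rat and 237 CPM in chimera rat cells, and 40 mouse cells of this class held 569 CPM (509 to 635). In that mouse class the mural markers Rgs5, Kcnj8, Abcc9 and Myh11 had 0 UMIs, Pdgfrb was at 60.1 CPM, and 7 of 12 mural markers had any UMI. Mouse FAP-like cells held 134 CPM of Ndufa4l2, and 10 of 12 mural markers had a UMI. Rgs5 was at 0 CPM there, Myh11 at 69.5 CPM and Pdgfrb at 88.4 CPM. In SD rat tenocyte or fibroblast-like cells Rgs5 was at 12.5 CPM and Pdgfrb at 80.1 CPM. The SD rat pericyte or mural-like cells had 1696 and 247 CPM. Whether mural cells entered the fibroblast or FAP-like classes was not tested. Cox4i2 was at 50.9 and 51.3 CPM in the 2 rat fibroblast classes and at 17.7 CPM in the mouse class. The mouse cells gave no mural class, and the unnamed chimera rat cluster of 172 cells, high in Myh11 (2103 CPM), held 405 CPM of Cox4i2 and 339 CPM of Ndufa4l2.

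**Figure D4:**
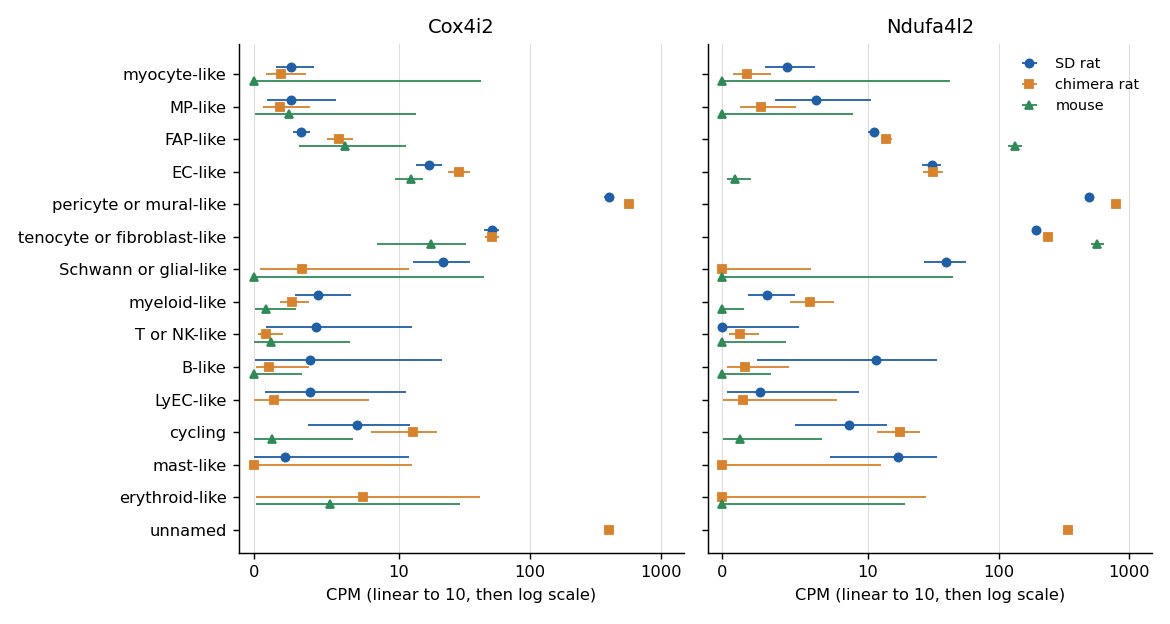
The level of Cox4i2 (left) and Ndufa4l2 (right) in CPM (x axis, linear to 10 and log scale above) is plotted for each cell class (rows) in SD rat (circles), chimera rat (squares) and mouse cells (triangles), with exact 95% intervals. Pericyte or mural-like cells lie highest in both rat populations, between 399 and 793 CPM, and the fibroblast class is next for Ndufa4l2 among the named rat classes.

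Hypoxia-induced genes were set beside these isoforms from a list of their own. Of 11 such genes with at least 20 UMIs, 1 (Ankrd37) was at least 2-fold higher in SD rat pericyte or mural-like than FAP-like cells and 1 (Vegfa) was lower, with a median log2 ratio of 0.19. Among all 13092 rat genes with at least 20 UMIs in this comparison, 19.7% were at least 2-fold higher and 9.69% at least 2-fold lower, with a median of 0.30. In the same comparison 7 of 13 mitochondrially encoded subunits were at least 2-fold higher and none was lower. Of the assembly factors 3 of 34 were higher and 1 lower, and 0 of 13 tricarboxylic acid cycle genes passed 2-fold in either direction.

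The comparison of chimera rat with SD rat cells asks whether host cells of the chimera differ from those of a plain rat in these genes. In myocyte-like cells the summed level was 6.65% for the chimera against 8.55% for the SD rat, a log2 ratio of -0.36 (-0.37 to -0.35). It was lower for every complex, from -0.28 in complex III to -0.53 in complex II. Of 76 members with at least 20 UMIs in both groups together, 2 were higher and 74 lower in the chimera, with a median of -0.38. All 8125 rat genes tested in this class had a median of -0.20, so most of them were lower too. Their quartiles were -0.53 and 0.09, beside -0.53 and -0.23 for the members.

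Few single members were far apart. In myocyte-like cells 2 members, Ndufab1 and Ndufa4l2, were at least 2-fold lower in the chimera and 0 at least 2-fold higher. Among all genes tested 6.68% were lower and 0.911% higher by that measure. The difference was thus a small one spread over most members, in a class where most genes were lower. Its size relative to variation between animals is unknown.

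Ndufab1 stood at 635 CPM in chimera rat and 1282 CPM in SD rat myocyte-like cells, a log2 ratio of -1.01. However, 32.3% of its pair UMIs in chimera rat cells lay on the mouse gene, and with these added the ratio was -0.53. Ndufa4l2 had only 8 and 29 UMIs. Sdhd, a membrane anchor of complex II, was at 163 and 293 CPM, a log2 ratio of -0.84 with 1.03% of the pair on the mouse gene. The highest ratios belonged to the pseudogene row Ndufv3-ps1, with 45 and 42 UMIs that could be shared with Ndufv3, to Atp5mc2 at 1193 and 1171 CPM, and to Cox7a2l at 306 and 314 CPM.

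Myosin heavy chains divided the myocyte-like cells further. Barcodes were grouped by the adult myosin gene with the most UMIs, Myh7 for slow, Myh2 for fast oxidative and Myh4 for fast glycolytic fibres. The adult gene Myh1 was searched as well but gave no group in either rat population. Whether Myh1 fibres lie among the rat Myh4 or other barcodes was not tested. In the SD rat the summed level was 8.63% in 45 Myh7 barcodes, 10.1% in 30 Myh2 barcodes and 8.49% in 1373 Myh4 barcodes. In the chimera it was 10.1% in 15 Myh7, 11.2% in 11 Myh2 and 6.48% in 789 Myh4 barcodes. The chimera was thus lower in the Myh4 barcodes, which made up most of the class, and higher in the few Myh7 and Myh2 barcodes. It was also lower in barcodes with no myosin UMI, at 7.03% in 15 barcodes (6.85% to 7.21%) against 9.22% in 57 of the SD rat (9.08% to 9.36%). Ties were found in 7 SD rat and 2 chimera barcodes, at 9.38% and 11.7%. Barcodes of 1 animal are not replicates, so these differences have no error beyond counting.

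The mitochondrially encoded share moved alongside in Myh4 and Myh7 barcodes, as did Mb, the gene for the oxygen store myoglobin. In Myh2 barcodes the mitochondrially encoded share went the other way, at 2.98% in the SD rat and 2.55% in the chimera. Mb in those Myh2 barcodes was at 14317 and 15810 CPM. Mitochondrially encoded genes made up 1.24% of UMIs in SD rat and 0.761% in chimera Myh4 barcodes, and 2.80% and 3.69% in Myh7 barcodes. Mb was at 2654 and 1276 CPM in the Myh4 barcodes. For Myh7 over Myh4 barcodes, the median log2 ratio over the members was 0.10 in the SD rat, where 46 of 75 were higher. All 6818 rat genes tested there had a median of 0.21, with 57.9% higher, so the members were near that background. In the chimera the members had a median of 0.75 and 70 of 74 were higher, where all 5427 genes had a median of -0.08 with 48.1% higher. Cox7a1 was highest in Myh2 barcodes, at 232 CPM in the SD rat and 217 CPM in the chimera, with 25 and 15 CPM in Myh4 barcodes. Cox6a2 differed little by myosin in the SD rat, with 5188 CPM in Myh7 and 5193 CPM in Myh4 barcodes. In the chimera it was at 6144 and 4717 CPM.

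In MP-like cells the members were close to level. The summed level was 2.67% in 423 chimera rat and 2.51% in 360 SD rat cells, a log2 ratio of 0.085 (0.070 to 0.100), and the median over 72 members was 0.12 beside 0.0014 for all 9718 genes. Of the members 2, Cox6a2 and Ndufa4l2, were at least 2-fold lower, and 0 were at least 2-fold higher, where all genes gave 2.84% lower and 2.37% higher. Cox6a2 was at 75.4 and 205 CPM, and the myofibre genes were at 6764 and 16059 CPM in the same cells. Myofibre RNA holds other members too, and the part of this difference in the summed ratio was not tested. Ndufa4l2 rested on 9 and 15 UMIs. The highest ratios were those of Uqcrc2, a core protein of complex III (179 and 131 CPM), Atp5mc2 (803 and 622 CPM) and Ndufc2 (224 and 174 CPM).

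FAP-like cells gave the most precise comparison, over 28766610 UMIs of chimera rat and 36411586 of SD rat cells. The summed level was 1.59% and 1.54%, a log2 ratio of 0.046 (0.041 to 0.052), which was -0.022 after the mouse UMIs of each pair were added, so its direction depends on the mapping. Of 76 members 1, Cox6a2, was at least 2-fold lower and 0 were at least 2-fold higher, beside 1.43% and 0.852% of all genes. Cox6a2 was at 53.4 and 120 CPM, and the myofibre genes were at 4573 and 8602 CPM, whose part in the summed ratio was not tested. Ndufab1 was at 74.5 and 124 CPM, and Atp5me at 308 and 397 CPM with 22.9% of its pair on the mouse gene. With the pair summed, Atp5me had a log2 ratio of -0.09. The members with the highest ratios were Cox4i2 (5.87 and 3.24 CPM), Ndufa3 of complex I (139 and 96.6 CPM) and Sdhc (68.6 and 52.4 CPM).

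In EC-like cells the summed level was 2.02% in 722 chimera rat and 1.85% in 1623 SD rat cells, a log2 ratio of 0.13 (0.11 to 0.14). Of 76 members 1, Cox6a2, was at least 2-fold lower and 0 at least 2-fold higher, beside 4.01% and 4.12% of all genes. Cox6a2 was at 124 and 437 CPM, a log2 ratio of -1.81. The myofibre genes were at 10289 and 28089 CPM, and their part in the summed ratio was not tested. Ndufab1 had 109 and 186 CPM and Atp5me 373 and 581 CPM, the pair sums giving log2 ratios of -0.30 and -0.34. Ndufc2 (235 and 126 CPM), Ndufa8, an accessory subunit of complex I (184 and 106 CPM), and Atp5if1 (721 and 417 CPM) had the highest ratios. The median depth of these cells was 3447 UMIs for the chimera against 1808 for the SD rat, whose part in the ratios was not tested.

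The same lists around the chain were read between the libraries. In myocyte-like cells the mitochondrially encoded subunits had a median log2 ratio of -0.62, the tricarboxylic acid cycle genes of -0.53, the carriers of -0.58, the hypoxia-induced genes of -0.36 and the regulators of -0.25, whereas the assembly factors were at 0.01. At least 2-fold lower in the chimera were Mt-nd6, the assembly factor Tmem70, Slc25a5, Ppargc1b and Vegfa, and 0 genes of the 6 lists were at least 2-fold higher. The 5 lower genes were 6.17% of the 81 tested, near the 6.68% of all genes. In FAP-like cells the medians of these lists lay between -0.03 for hypoxia-induced genes and 0.34 for assembly factors. The 8 myofibre genes were at 359188 CPM in SD rat and 391248 CPM in chimera rat myocyte-like cells, a median log2 ratio of 0.11.

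**Figure D5:**
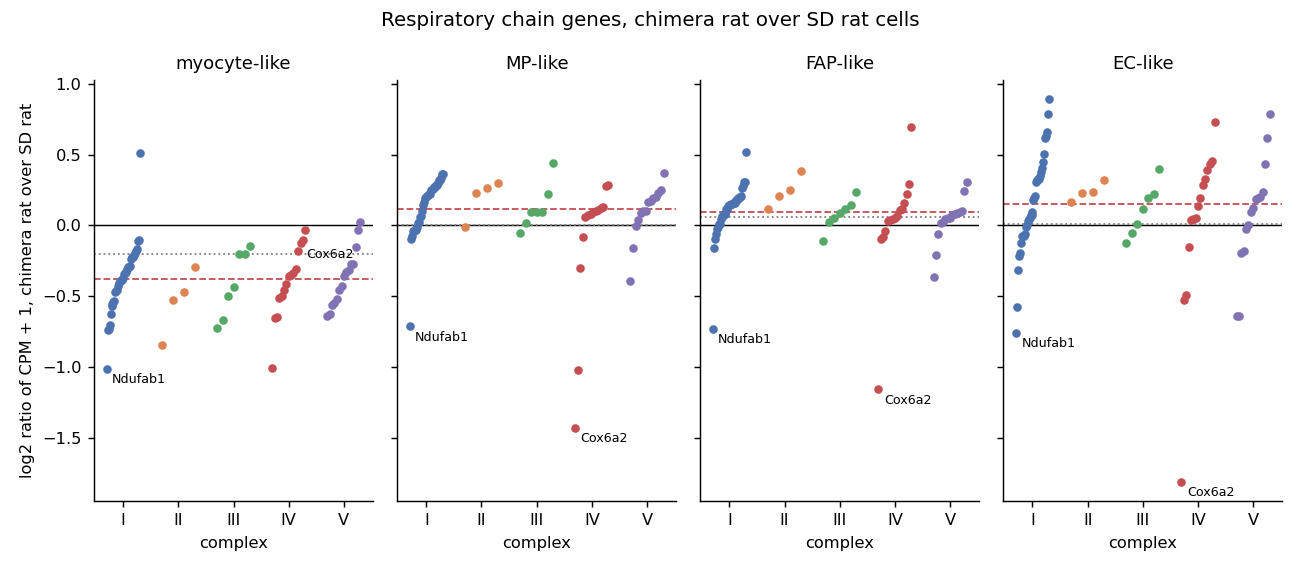
Each point is a member gene with at least 20 UMIs, grouped by complex (x axis), with the log2 ratio of CPM + 1 between chimera rat and SD rat cells (y axis) in 4 cell classes. Dashed lines are medians of the members and dotted lines medians of all rat genes. In myocyte-like cells the members' median is -0.38, and Cox6a2 lies lowest in the other 3 classes, down to -1.81 in EC-like cells.

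Because the chimera was mapped to both genomes and the SD rat to the rat genome alone, each ratio between the libraries depends on how reads were divided between rat and mouse copies of a gene. In chimera rat cells the median of 71 member pairs with at least 100 UMIs had 1.61% of its UMIs on the mouse gene, and 11 pairs had over 5%. Over these 71 pairs together 3.01% of UMIs lay on the mouse gene. Over all genes 6.54% of UMIs lay on mouse rows, but that value also counts mouse rows without a rat namesake. The shares are therefore not comparable. The lowest shares were those of Cox4i2 (0 of 1814 UMIs, which allows up to 0.203%), Ndufa4l2 (0.188%) and Cox7a2l (0.760%). Cox7a1 and Ndufab1 were among the pairs with the highest shares. Without the 11 pairs over 5% the median log2 ratio in myocyte-like cells was -0.37, and within those 11 it was -0.47.

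Mouse and chimera rat cells of the same library were compared over the 73 names found on both kinds of row. In myocyte-like cells these made up 5.98% of mouse UMIs and 6.56% of rat UMIs, a log2 ratio of -0.13 (-0.17 to -0.09). In EC-like cells, where both species had many cells, the values were 1.63% and 1.91%, a log2 ratio of -0.23. Myeloid-like and B-like cells went the other way, with log2 ratios of 0.17 and 0.27. After pair UMIs of both species were added these 4 ratios kept their signs, at -0.17, -0.13, 0.23 and 0.35. Cycling cells had the ratio farthest from 0, at -0.36, and -0.29 as a pair sum. In erythroid-like and T or NK-like cells the sign turned with the pair sums, from -0.28 to 0.27 and from -0.019 to 0.056, so the direction there depends on the mapping. Rat and mouse rows come from separate annotations, so species and annotation cannot be told apart.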

How the data were processed

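The authors processed the reads with Cell Ranger 7.1.0 and deposited UMI counts per gene and barcode, unnormalized, with the SD rat mapped to mRatBN7.2 and the chimera to mRatBN7.2 and GRCm39 together, per the labels. From these deposited counts, barcodes with at least 500 UMIs, 200 genes and at most 20% mitochondrial UMIs were kept, and Scrublet doublets (164 in the SD rat, 444 in the chimera) were removed. Each population was clustered with scanpy 1.11.5 and leidenalg 0.10.2 (2000 variable genes, 30 components, 15 neighbours, resolution 1), leaving out member, mitochondrial and rRNA genes. Each cluster was scored for every class by the share of its markers raised at least 2-fold, multiplied by their median log2 fold. The class with the highest score gave the name, with at least 3 raised markers needed. A cluster stayed unnamed where another class had more markers among its 10 leading genes. Counts were summed per class. CPM used UMIs on genes of the cell's species without rRNA. Ratios used a pseudocount of 1 CPM and genes with at least 20 UMIs. Ratios and intervals were tested on simulated counts. Pairs of rat and mouse genes were matched by name, 15 through RefSeq synonyms.

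Members and lists were chosen with earlier results of these data known. Genes were named by rule: the tissue isoforms and partners, the 3 lowest and 3 highest members per class comparison, the 2 most abundant per complex, the 5 highest and 5 lowest between myocyte-like and FAP-like cells, and the 3 lowest and 3 highest by share on the mouse gene, of which 1 is not reported here. Other genes, such as single entries of the surrounding lists, Mb, the mural markers and those in the myosin and species comparisons, were chosen after their values were seen. Alternatives covered filters, species thresholds, clustering, denominators, pair sums and pseudocounts.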

Additional observations from a re-analysis of the deposited data

Results flagged for a closer look

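Barcodes above 20% mitochondrial UMIs entered no comparison, yet they held member RNA above the limit that a count of 0 allows, which is why they are given here. The members made up 1.32% of UMIs in 1126 such SD rat barcodes and 0.634% in 1109 chimera barcodes, with 33568 and 23228 member UMIs. Mitochondrially encoded genes made up 34.6% and 40.9% of their UMIs. With those left out of the denominator the members stood at 2.02% and 1.07%. The 8 myofibre genes were at 35885 and 14784 CPM.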

How the results depend on the processing

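In each of 10 alternatives for the summed level, the log2 ratio of chimera rat to SD rat stayed negative in myocyte-like cells (-0.38 to -0.34) and positive in MP-like (0.016 to 0.42) and EC-like cells (0.049 to 0.25). In FAP-like cells it reversed to -0.022 with the mouse UMIs of each pair added. Other pair sums were -0.38 (myocyte-like), 0.016 (MP-like) and 0.061 (EC-like), with 1 myocyte-like member at least 2-fold lower and Ndufa4l2 at 731 CPM in chimera rat mural cells. Without the mitochondrial limit the ratios were -0.35, 0.033 and 0.22 in these classes, with 1 member lower in myocyte-like and 1 in MP-like cells, and the fold of myocyte-like over FAP-like cells was 5.45 (SD rat), 4.15 (chimera rat) and 4.93 (mouse). Mural Cox4i2 and Ndufa4l2 then fell to 86.0 and 54.9 CPM in the SD rat, in a cluster of 294 cells led by Slit3 and Myh11, and to 261 and 365 CPM in the chimera.

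With a species threshold of 90% and 10%, the ratios were -0.34, 0.42, 0.15 (FAP-like) and 0.049 (EC-like), with 0, 1, 0 and 2 members lower, from few chimera rat MP-like cells. Mouse myocyte-like cells were then a cluster of 47 cells led by Gal and Cryab, with Cox6a2 at 45.4%, Cox7a1 at 12.2% and Cox8b at 9.27% of their pairs, and folds over FAP-like cells were 2.05 (mouse) and 3.96 (chimera rat). No mural cluster was then found in the chimera, so those 2 levels gave no value. By majority of UMIs the values were -0.37 and 0.069 with 1 member lower in myocyte-like and 1 in MP-like cells, Cox8b at 92.6%, Ndufa4l2 at 644 CPM and folds of 4.16 (chimera rat) and 5.27 (mouse). Without mitochondrially encoded genes in the denominator they were -0.37, 0.10 and 0.055 (FAP-like), folds of 5.38, 4.02 and 4.85, Cox4i2 at 437 and 628 CPM and Ndufa4l2 at 541 and 876 CPM (SD rat and chimera rat). With doublets kept, FAP-like and EC-like ratios were 0.0068 and 0.088, the SD rat fold 5.44 and chimera Ndufa4l2 730 CPM.

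At Leiden resolution 0.5 the MP-like ratio was 0.36, since most chimera rat progenitors joined a cycling cluster of 470 cells, and chimera Cox4i2 and Ndufa4l2 were at 472 and 525 CPM. At least 1000 UMIs gave an EC-like ratio of 0.25, with 505 and 702 CPM, and member genes in the clustering gave an MP-like ratio of 0.033. In MP-like cells 1 member in place of 2 was at least 2-fold lower under these 3 settings, with a pseudocount of 10 CPM and with at least 100 UMIs, and the last 2 also gave 1 in myocyte-like cells. Cox6a2 shares of rat myocyte-like cells stayed between 98.5% and 98.7%. No paired analysis was possible because each group was 1 library. Low counts limit rat Cox7a1 and all mouse myocyte-like values.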
